A study of Homo sapiens with 24 samples.

Results

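A set of genes of the canonical Wnt pathway were followed in AGS cells, an established line from a human gastric adenocarcinoma that carries a mutant CTNNB1 gene. They are CTNNB1, AXIN2, LGR5, NKD1, RNF43, ZNRF3, TCF7, LEF1, SP5 and DKK1, taken by symbol as well-known targets and feedback regulators of beta-catenin, and they make up 10 of the 23368 gene rows of a table of read counts. The table covers 24 RNA-seq libraries in 6 groups of 4 biological replicates, each harvested 24 h after treatment. Control cells received no inhibitor, and the labels do not say whether they received vehicle. The single agents were PI103, an inhibitor of PI3 kinases and mTOR, at 0.7 µM, PD0325901, an inhibitor of MEK, at 0.035 µM, and (5Z)-7-oxozeaenol, an inhibitor of TAK1 called oxozeaenol here, at 0.5 µM. The combinations were PI103 with oxozeaenol and PI103 with PD0325901, with each agent at 50% of its single dose, that is PI103 at 0.35 µM, oxozeaenol at 0.25 µM and PD0325901 at 0.0175 µM. All groups share the same line, its genotype labelled WT, and the same 24 h.

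In the absence of a Wnt ligand, a complex built on AXIN and APC marks beta-catenin, the product of CTNNB1, for degradation. A ligand, or a mutation that spares beta-catenin from that complex, lets it enter the nucleus, where it binds DNA through TCF and LEF factors and switches on target genes. Several of those targets act back on the pathway at different levels, in the cytoplasm, at the receptors or outside the cell. In the stomach and the gut the same pathway maintains stem cells, which LGR5 marks.

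Library depth ranged from 38057638 to 84226380 counts assigned to genes, and the 10 genes together held 0.163% to 0.350% of them. Oxozeaenol replicate 2 had counts in 18263 genes, whereas the other libraries had counts in 15645 to 16556. The cause of that difference was not tested. Values below are counts-per-million (CPM) of the scaled library size. They are given as mean ± SD over 4 libraries, or for each library in the order of batches 1 to 4, which is also the replicate number. Fold changes and adjusted p-values come from the two-sided quasi-likelihood test of edgeR, adjusted by Benjamini-Hochberg over the 13947 genes tested, and a gene is called changed at an adjusted p under 0.05. The 5 treatments were compared with the same 4 control libraries, so those comparisons are not independent. Where a treated range lies apart from the control range, a direction shared by 4 of 4 batches follows from that and adds no support. Markers of the labelled epithelial origin were present, with 9 of 10 at a mean of at least 1 CPM in each group. KRT20 was the exception at 0.179 CPM over all libraries, and KRT8 reached 2926. Of 8 blood markers, LYZ ranged from 37.7 to 466 CPM and was lowest in control, so that the summed level of that list was 38.7 to 49.3 CPM in control libraries and 188 to 468 in treated ones. MS4A1 had no count in any library, and PTPRC averaged 0.0187 CPM. The 8 fibroblast markers summed to 61.1 to 83.4 CPM in control, 99.3 to 112 with PI103, 62.5 to 91.1 with PD0325901, 37.6 to 46.6 with oxozeaenol, 43.7 to 53.1 with oxozeaenol added to PI103 and 64.4 to 80.5 with PD0325901 added. COL1A1 and PDGFRA held nearly all of that sum, whereas COL1A2, DCN and THY1 had 2 or 3 counts each over all libraries. The 5 endothelial markers summed to at most 0.479 CPM in any library. The part of the fibroblast marker genes in the results was not tested.

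Promoter sequences are shown for SP5 and DKK1, since both genes changed and both windows hold a short match to the site that TCF and LEF factors bind. Windows of 300 bases, from 250 before to 50 after a transcription start, were available from RefSeq (GRCh38.p14) for 6 of the 10 genes, namely CTNNB1, RNF43, TCF7, LEF1, SP5 and DKK1. They were searched on both strands for CTTTGAA and CTTTGAT, which read TTCAAAG and ATCAAAG on the other strand. A match is a description of the letters and not evidence of binding. The 250 bases before the start are printed for SP5 (chr2:170715087-170715336, plus strand) and DKK1 (chr10:52314031-52314280, plus strand), 5′ to 3′, with matches in capitals.
SP5: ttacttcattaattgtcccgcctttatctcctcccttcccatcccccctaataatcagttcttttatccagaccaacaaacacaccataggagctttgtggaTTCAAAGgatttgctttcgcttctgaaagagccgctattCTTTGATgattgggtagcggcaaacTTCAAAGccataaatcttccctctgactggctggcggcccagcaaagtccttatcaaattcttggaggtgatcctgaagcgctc
DKK1: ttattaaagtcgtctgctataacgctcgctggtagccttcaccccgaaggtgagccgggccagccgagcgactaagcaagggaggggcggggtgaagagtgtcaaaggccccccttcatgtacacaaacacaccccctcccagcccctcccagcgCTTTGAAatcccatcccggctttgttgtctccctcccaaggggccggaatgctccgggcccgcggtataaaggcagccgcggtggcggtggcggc
SP5 held 3 matches, at 148, 109 and 84 bases before the start, and DKK1 held 1, at 95 bases before it. No match lay in the windows of CTNNB1, RNF43, TCF7 or LEF1. Of all 35116 promoter windows of this length, 6.86% held at least 1 match and 9 held 3 or more.

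The genes did not move as a block. With PI103, all 6 called genes rose: NKD1, LGR5, RNF43, AXIN2, SP5 and DKK1, by 1.15, 1.01, 0.98, 0.74, 0.73 and 0.43 on the log2 scale. PD0325901 and oxozeaenol raised LGR5, RNF43 and DKK1 as well, but lowered NKD1. CTNNB1 and TCF7 were not called in any of the 5 comparisons with control, and LEF1 had no count in any library. The plot of fold changes against control shows these patterns side by side.

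**Figure D1:**
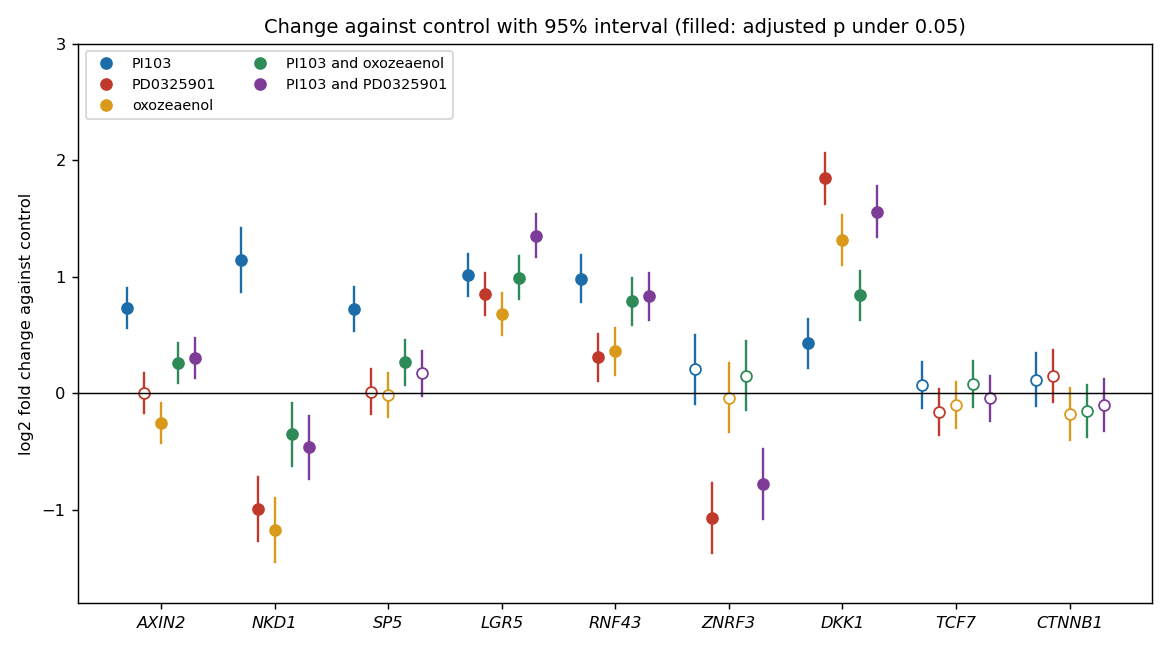
Log2 fold change of 9 genes against control (vertical axis) for each of the 5 treatments (colours), with 95% intervals, where filled points passed an adjusted p under 0.05. LGR5, RNF43 and DKK1 lie above 0 in all treatments, whereas NKD1 lies at 1.15 with PI103 and at -1.17 with oxozeaenol.

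Since each inhibitor changed a large share of the transcriptome, the counts of called members are given beside that share. PI103 changed 6 of the 9 tested members, all upward, beside 51.4% of all tested genes, 26.2% rising and 25.2% falling. PD0325901 changed 5 of 9 (3 up, 2 down) beside 58.6% of genes (28.7% up, 29.9% down). Oxozeaenol changed 5 of 9 (3 up, 2 down) beside 51.9% (25.7% up, 26.1% down). The combination of PI103 and oxozeaenol changed 6 of 9 (5 up, 1 down) beside 55.6% (27.7% up, 27.9% down), and that of PI103 and PD0325901 changed 6 of 9 (4 up, 2 down) beside 64.8% (32.2% up, 32.6% down). Counted in either direction, the members were called about as often as all genes, so the count of calls is not a result about them. The median log2 fold change over the 9 members was 0.73 with PI103, 0.01 with PD0325901 and -0.04 with oxozeaenol, and in the combinations 0.26 with oxozeaenol added to PI103 and 0.17 with PD0325901 added. Over all tested genes that median lay between -0.02 and 0.02 in the 5 comparisons. The scaling of library sizes places the bulk of genes near 0. That median and the near-even split of rises and falls are therefore no independent background, and all changes are relative to the other genes.

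CTNNB1 (chromosome 3, 41194741 to 41260096, plus strand; all gene positions are from GENCODE release 29 on GRCh38) encodes beta-catenin itself. It measured 631, 533, 641 and 615 CPM in control, 681, 699, 686 and 559 with PI103, and 643, 672, 741 and 629 with PD0325901. With oxozeaenol it measured 599, 585, 547 and 410.5 CPM, with PI103 and oxozeaenol 565, 578, 585 and 446, and with PI103 and PD0325901 582, 568, 585 and 527. Each treated range overlapped the control range, and the library of batch 4 was the lowest in all 5 treated groups. Log2 fold changes against control ran from -0.18 ± 0.11 (SE) with oxozeaenol to 0.15 ± 0.11 with PD0325901, and none was called by edgeR (adjusted p = 0.183 and 0.247 for these). The level of CTNNB1 did differ between PD0325901 and oxozeaenol, where it was 1.25-fold lower with oxozeaenol (log2 -0.33 ± 0.11, adjusted p = 0.0275 by edgeR), and the ranges were apart. It was also 1.23-fold higher with PI103 than with oxozeaenol (log2 0.29 ± 0.11, adjusted p = 0.032 by edgeR). The first call was lost without PD0325901 replicate 2 or 3 or oxozeaenol replicate 4 (adjusted p up to 0.117) and in a fit of those 8 libraries alone (0.0978). The second was lost without PI103 replicate 1, 2 or 3 or oxozeaenol replicate 4 (adjusted p up to 0.149). The RNA level says nothing about the amount or location of the protein.

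TCF7 and LEF1 encode DNA-binding partners of beta-catenin. TCF7 (chromosome 5, 134114711 to 134151865, plus strand) kept to a narrow band, with group means from 25.8 ± 2.31 CPM with PD0325901 to 30.5 ± 2.30 with PI103 and oxozeaenol (SD, n = 4) beside 28.9 ± 1.19 in control. Its log2 fold changes against control lay between -0.16 and 0.08. For PD0325901, the largest of these in size, the 95% interval ran from -0.36 to 0.03. TCF7 was 1.18-fold higher with PI103 than with PD0325901 (log2 0.24 ± 0.10, adjusted p = 0.0465 by edgeR), a call lost without batch 4 (adjusted p = 0.139) and without any 1 of the libraries but PD0325901 replicate 1 (adjusted p up to 0.137). That call was also lost with RLE size factors (0.0540) and without the filter on low counts (0.0728). TCF7 was not called between PI103 and oxozeaenol (log2 0.17, adjusted p = 0.143), except with the batch in the model (0.0489) or without oxozeaenol replicate 1 (0.0202).

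LEF1 (chromosome 4, 108047545 to 108168956, minus strand) had a count of 0 in all 24 libraries. With 3 counts as the limit that a count of 0 allows, its level was at most 0.0366 to 0.0851 CPM, depending on the library, for counting error only. Of its exon bases, 5.2% lie opposite LEF1-AS1, which has no row in the table, and how reads were assigned to LEF1 is not given in the sources used here. Among the other family members, TCF7L1 had 140 counts over all 24 libraries. TCF7L2, named here after its values were seen, had 38 ± 6.49 CPM in control and 58.9 ± 5.80 with PI103, a rise of 0.63 ± 0.11 on the log2 scale (adjusted p = 3.30e-05 by edgeR). It fell by 0.34 with PD0325901 and by 0.31 with oxozeaenol (adjusted p = 0.0114 and 0.0217 by edgeR). The first fall lost its call without control replicate 1 or PD0325901 replicate 3 (adjusted p up to 0.0857) and with only the compared groups fitted (0.0612). The second lost its call without control replicate 1 or without replicate 2 or 4 of the treated libraries (up to 0.153). Per kb of its longest coding transcript, TCF7L2 stood at 9.19 CPM in control and TCF7 at 8.67, so both were present at a like level.

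SP5 (chromosome 2, 170715351 to 170718078, plus strand) encodes a zinc-finger transcription factor that beta-catenin switches on directly in many cell types. It measured 42.4, 42.9, 41.1 and 47.8 CPM in control and 63.3, 83.9, 68.6 and 72.1 with PI103. Every PI103 library lay above every control library, a 1.65-fold rise (log2 0.73 ± 0.09, adjusted p = 4.42e-07 by edgeR). SP5 measured 48.2, 38.8, 47.8 and 41.0 CPM with PD0325901 and 45.1, 46.1, 44.4 and 37.0 with oxozeaenol. Neither single agent moved it measurably, with 95% intervals of the log2 change from -0.18 to 0.21 and from -0.21 to 0.18. With PI103 and oxozeaenol SP5 measured 53.6, 53.4, 55.2 and 47.2 CPM, and with PI103 and PD0325901 52.1, 49.7, 49.4 and 44.9. The first of these was 1.20-fold above control (adjusted p = 0.0176 by edgeR) with ranges that overlapped at 1 library, and its adjusted p was 0.0713 without the filter on low counts and 0.0569 without control replicate 3. The second was 1.13-fold above control and was not called (adjusted p = 0.109), but was called without batch 4 (adjusted p = 0.0283).

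AXIN2 (chromosome 17, 65528563 to 65561647, minus strand) encodes a scaffold of the complex that degrades beta-catenin and is a widely used readout of the pathway. It measured 363, 329, 389 and 326 CPM in control, 561, 571, 607 and 603 with PI103, and 358, 388, 324 and 337 with PD0325901. It measured 305, 270.2, 296 and 306 CPM with oxozeaenol, 409, 395, 423 and 454 with PI103 and oxozeaenol, and 469.6, 379, 452 and 438 with PI103 and PD0325901. The PI103 libraries stood above all others, and the oxozeaenol libraries lay below all others. AXIN2 rose 1.66-fold with PI103 (log2 0.74 ± 0.08, adjusted p = 6.64e-08 by edgeR), higher in 4 of 4 batches. With PD0325901 the fold was 0.999, and the 95% interval of the log2 change ran from -0.17 to 0.17.

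Oxozeaenol lowered AXIN2 1.20-fold (log2 -0.26 ± 0.08, adjusted p = 0.0116 by edgeR), in 4 of 4 batches. That call did not survive leaving out control replicate 3 or replicate 2 of the treated libraries (adjusted p up to 0.0543) and in a fit of those 8 libraries alone (adjusted p = 0.0585). Both combinations raised AXIN2, by 0.26 ± 0.08 with oxozeaenol and 0.31 ± 0.08 with PD0325901 on the log2 scale (adjusted p = 0.011 and 0.00241 by edgeR). The first of these was not called without the filter on low counts (adjusted p = 0.0638) or without batch 4 (0.147). About 25.2% of the exon bases of AXIN2 are shared with a same-strand transcript model, AC004805.1, that has no row in the table.

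NKD1 (chromosome 16, 50548330 to 50649249, plus strand) encodes a cytoplasmic inhibitor that binds Dishevelled, and it separated the 3 inhibitors most widely. It measured 30.4, 32.9, 31.4 and 33.9 CPM in control and 73.5, 65.6, 70.7 and 74.8 with PI103. It measured 19.3, 16.9, 13.2 and 15.1 CPM with PD0325901 and 17.5, 16.2, 13.1 and 10.0 with oxozeaenol. The PI103 libraries lay above every control library, and those of the other 2 agents lay below it. NKD1 rose 2.21-fold with PI103 (log2 1.15 ± 0.13, adjusted p = 7.77e-08 by edgeR). It fell 1.99-fold with PD0325901 and 2.26-fold with oxozeaenol (SE 0.13 on the log2 scale for both, adjusted p = 5.37e-07 and 7.47e-08 by edgeR). Each of these directions held in 4 of 4 batches.

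In the combinations NKD1 fell below control. It measured 26.7, 27.5, 21.7 and 24.9 CPM with PI103 and oxozeaenol and 26.8, 19.3, 24.3 and 22.8 with PI103 and PD0325901, all below the lowest control library. These were log2 changes of -0.35 ± 0.13 and -0.46 ± 0.13 (adjusted p = 0.0259 and 0.00332 by edgeR), in 4 of 4 batches each. The call for PI103 and oxozeaenol was lost without control replicate 2 or 4 or without combination replicate 3 or 4, with adjusted p up to 0.099, and without batch 4 (0.0626).

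**Figure D2:**
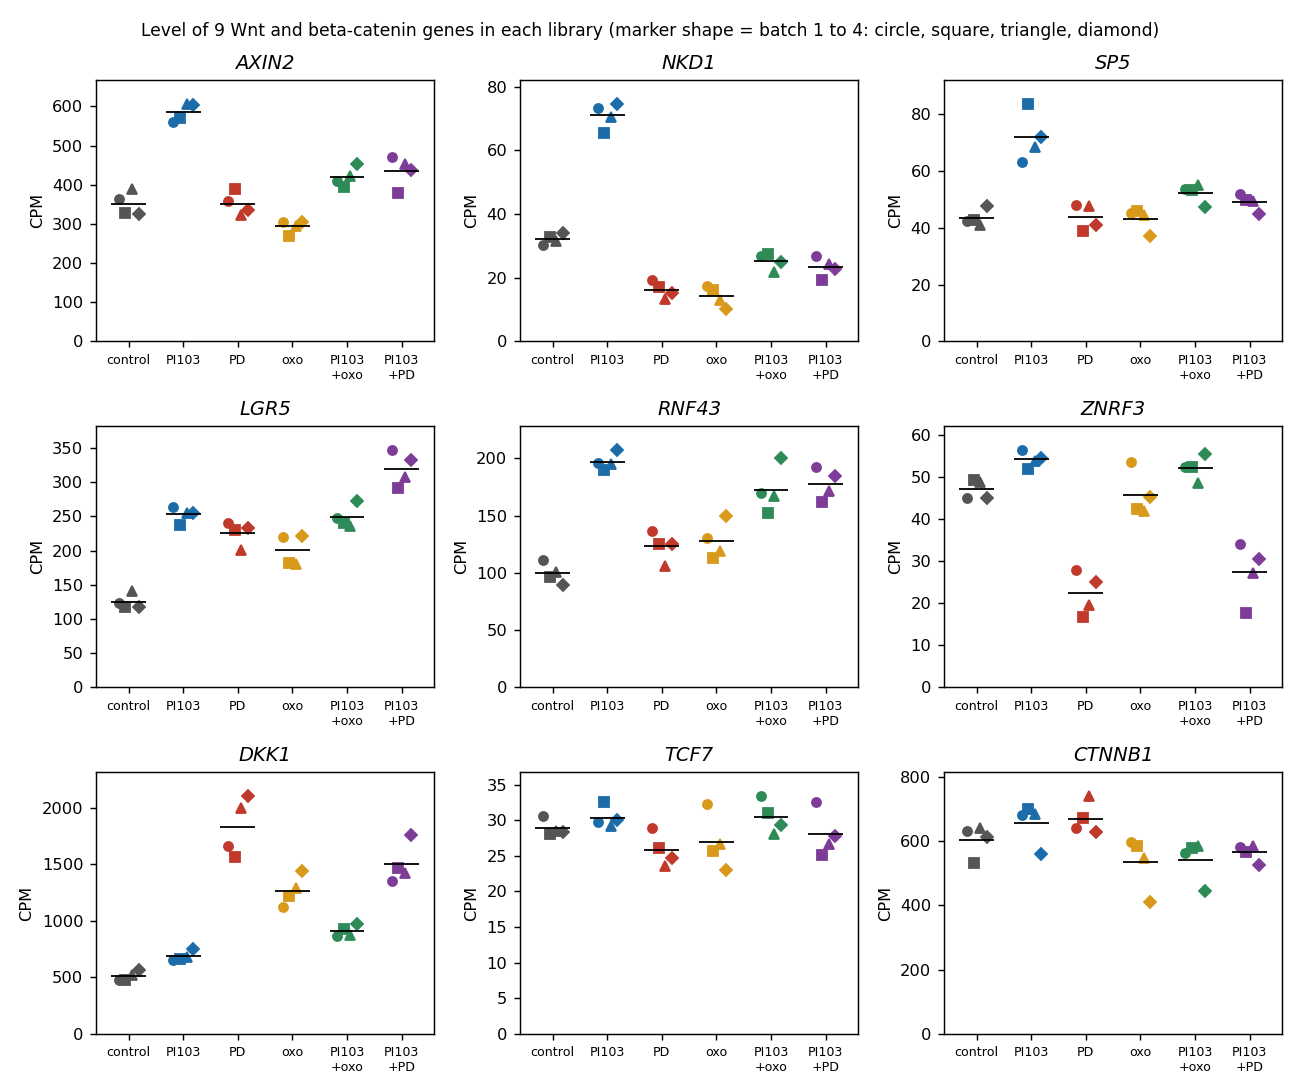
CPM of 9 genes in each of the 24 libraries (vertical axes start at 0), by group, with marker shape giving the batch and a line at the group mean. AXIN2, NKD1 and SP5 are highest with PI103, DKK1 is highest with PD0325901, and ZNRF3 is low in both groups that received PD0325901.

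LGR5, RNF43 and ZNRF3 act at the receptor. LGR5 is a receptor for R-spondins and a marker of stem cells, and RNF43 and ZNRF3 are ubiquitin ligases that remove Wnt receptors from the cell surface, which R-spondins counter. LGR5 (chromosome 12, 71439770 to 71586310, plus strand) measured 123, 118, 141 and 118 CPM in control. It measured 264, 238, 255 and 255 CPM with PI103, 240.1, 231, 201 and 234 with PD0325901, and 219.8, 182, 181 and 222 with oxozeaenol. No treated library of the single agents overlapped the control range, and the folds were 2.02, 1.81 and 1.61 (adjusted p = 7.33e-10, 8.03e-09 and 4.7e-07 by edgeR). LGR5 rose in 4 of 4 batches with each of them.

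The combination of PI103 and oxozeaenol brought LGR5 to 248, 240.4, 236 and 273 CPM, and that of PI103 and PD0325901 to 347, 292, 307 and 333. In the latter group all 4 libraries stood above every library of the other 5 groups. These were 1.99-fold and 2.55-fold rises over control (log2 0.99 ± 0.09 and 1.35 ± 0.09, adjusted p = 7.79e-10 and 1.96e-12 by edgeR). In order of the mean, LGR5 ran from control through oxozeaenol, PD0325901, PI103 with oxozeaenol and PI103 to PI103 with PD0325901. PI103 and PD0325901 did not differ by test (log2 0.16, 95% interval -0.02 to 0.34, adjusted p = 0.143 by edgeR), nor did oxozeaenol and PD0325901 (log2 -0.17, 95% interval -0.35 to 0.01, adjusted p = 0.146), though the latter pair did without oxozeaenol replicate 1 (adjusted p = 0.0434).

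RNF43 (chromosome 17, 58352500 to 58417595, minus strand) measured 112, 96.5, 101 and 89.5 CPM in control and 196, 190.3, 195 and 208 with PI103. It measured 136, 126, 106 and 125 CPM with PD0325901 and 131, 113, 119 and 149 with oxozeaenol. With PI103 it stood well above control in every library, a 1.98-fold rise (log2 0.98 ± 0.10, adjusted p = 7.43e-09 by edgeR). The rises with PD0325901 and oxozeaenol were smaller, 1.24-fold and 1.28-fold (adjusted p = 0.00889 and 0.00337 by edgeR), and the range with PD0325901 overlapped that of control. Without batch 4 the log2 change with oxozeaenol was 0.22 rather than 0.36, and was not called (adjusted p = 0.0866). The combinations brought RNF43 to 170.2, 152, 167 and 201 CPM with oxozeaenol and to 193, 162, 172 and 185 with PD0325901, 1.73-fold and 1.78-fold above control (adjusted p = 1.97e-07 and 4.88e-08 by edgeR). Its count is uncertain, since 59.5% of its exon bases are shared with the same-strand genes AC004687.2 and SUPT4H1 and 20.3% with TSPOAP1-AS1 on the opposite strand, and whether the counting used strand is not given in the sources used here.

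ZNRF3 (chromosome 22, 28883592 to 29057487, plus strand), the closest relative of RNF43, went another way. It measured 44.9, 49.4, 48.8 and 45.1 CPM in control, 56.5, 52.0, 53.9 and 54.5 with PI103, and 28, 16.7, 19.7 and 25.1 with PD0325901. PD0325901 lowered it 2.10-fold (log2 -1.07 ± 0.15, adjusted p = 8.18e-07 by edgeR), in 4 of 4 batches, whereas the rise of 0.20 with PI103 was not called (adjusted p = 0.243) although the ranges did not overlap. In a fit of the PI103 and control libraries alone, that rise was called (adjusted p = 0.0189).

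ZNRF3 measured 53.5, 42.5, 42.0 and 45.2 CPM with oxozeaenol, 52.5, 52.5, 48.5 and 55.5 with PI103 and oxozeaenol, and 34.1, 17.8, 27.2 and 30.6 with PI103 and PD0325901. Both groups that received PD0325901 lay below all others, and the libraries within them spread widely (coefficients of variation of 22.8% and 25.6% beside 4.98% in control). The fall with PI103 and PD0325901 was 1.71-fold (log2 -0.78 ± 0.15, adjusted p = 4.73e-05 by edgeR). Between the single agents, ZNRF3 was 2.05-fold higher with oxozeaenol than with PD0325901 and 2.42-fold higher with PI103 than with PD0325901 (adjusted p = 1.53e-05 and 1.28e-07 by edgeR).

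The level of ZNRF3 relative to RNF43 within a library, both per kb of the longest coding transcript, was looked at after these values were seen and is given without a test. It was 0.387 ± 0.0407 in control, 0.293 ± 0.0368 with oxozeaenol, 0.248 ± 0.0244 with PI103 and oxozeaenol, 0.224 ± 0.00866 with PI103, 0.147 ± 0.0268 with PD0325901 and 0.124 ± 0.0240 with PI103 and PD0325901 (SD, n = 4). By these counts RNF43 exceeded ZNRF3 per kb in every group, and the range of the ratio with PD0325901, 0.108 to 0.167, lay below that of control, 0.328 to 0.416. The ratio carries the uncertainty of the RNF43 count given above, and its size depends on the transcript lengths chosen. With PI103 the ratio was lower through a higher RNF43, and with PD0325901 mainly through a lower ZNRF3.

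**Figure D3:**
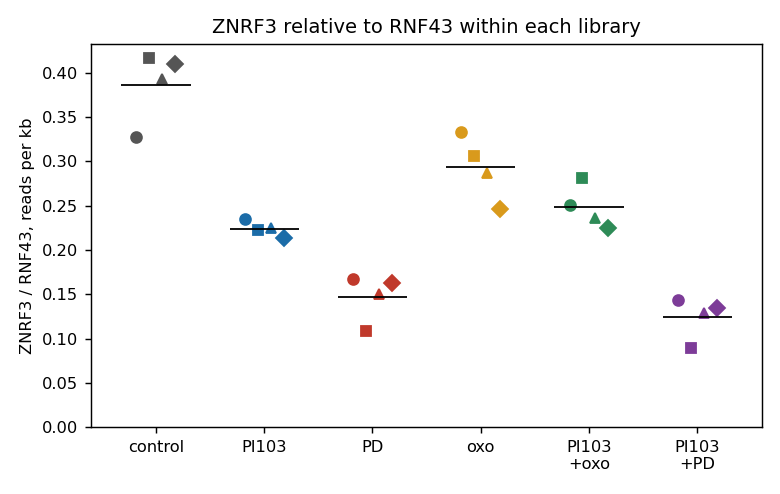
Ratio of ZNRF3 to RNF43 reads per kb (vertical axis, from 0) in each library by group, with marker shape giving the batch as in the plot of levels and a line at the group mean. Control libraries lie between 0.328 and 0.416, and those with PD0325901 alone between 0.108 and 0.167.

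DKK1 (chromosome 10, 52314296 to 52318042, plus strand) encodes a secreted antagonist that binds the co-receptors LRP5 and LRP6, and its rise with PD0325901 was the largest change of any member against control. It measured 478, 477, 521 and 562 CPM in control, 655, 661, 681 and 746 with PI103, and 1664, 1561, 1995 and 2106 with PD0325901. It measured 1122, 1219, 1291 and 1442 CPM with oxozeaenol, 869, 929, 877 and 973 with PI103 and oxozeaenol, and 1353, 1466, 1427 and 1758 with PI103 and PD0325901. Control lay lowest in every library, followed by PI103, PI103 with oxozeaenol, oxozeaenol, PI103 with PD0325901 and PD0325901. The first 4 of these ranges were apart from each other, whereas neighbours from oxozeaenol upward overlapped.

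Against control, DKK1 rose 3.60-fold with PD0325901 (log2 1.85 ± 0.11, adjusted p = 3.14e-13 by edgeR), a change exceeded in size by 5.84% of all tested genes. The folds were 2.49 with oxozeaenol, 1.35 with PI103, 1.79 and 2.95 with oxozeaenol and PD0325901 added to PI103, with adjusted p from 3.08e-12 to 0.00114 by edgeR. All 5 rises held in 4 of 4 batches, and within batches the log2 change with PD0325901 ran from 1.71 to 1.94. Of the exon bases of DKK1, 9.61% lie opposite PRKG1-AS1. Per kb of the longest coding transcript, DKK1 was the most abundant of the 10 genes in control at 285 CPM, followed by CTNNB1 at 128, AXIN2 at 82.6, LGR5 at 27.1, SP5 at 21.4, RNF43 at 17.9, TCF7 at 8.67, ZNRF3 at 6.87 and NKD1 at 1.88, the last over a transcript model of 17105 bases.

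The single agents were also compared with each other, at the doses given. PI103 differed from PD0325901 in 7 of the 9 genes, beside 44.5% of all tested genes, and from oxozeaenol in 7, beside 43.1%. NKD1 was 4.41-fold higher with PI103 than with PD0325901 and 4.99-fold higher than with oxozeaenol (adjusted p = 4.9e-12 and 1.56e-12 by edgeR). AXIN2 was 1.67-fold and 1.99-fold higher, RNF43 1.6-fold and 1.54-fold higher, and SP5 1.64-fold and 1.67-fold higher with PI103 than with PD0325901 and oxozeaenol respectively. DKK1 was the only one of the called genes that was lower with PI103, 2.67-fold and 1.85-fold. Oxozeaenol differed from PD0325901 in 4 genes, beside 28.5%: CTNNB1, AXIN2 and DKK1 were lower and ZNRF3 higher with oxozeaenol. For NKD1 that difference was -0.18 ± 0.13 on the log2 scale and was not called (adjusted p = 0.328). The call for AXIN2 (log2 -0.26, adjusted p = 0.023) was lost without replicate 2 of either group (adjusted p up to 0.0881) and with those 8 libraries fitted alone (0.0946).

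In the combinations each agent was present at 50% of its single dose, so a comparison with a single agent mixes a lower dose with an added agent. PI103 with oxozeaenol differed from PI103 in 4 of 9 genes, beside 18.3% of all tested genes: NKD1 was 2.82-fold lower, AXIN2 1.39-fold lower and SP5 1.37-fold lower, and DKK1 was 1.33-fold higher (adjusted p from 8.69e-09 to 0.0058 by edgeR). With the batch in the model CTNNB1 was called lower too (adjusted p = 0.0205). Against oxozeaenol alone the same combination differed in 6 genes, beside 14.9%. NKD1 was 1.77-fold, AXIN2 1.43-fold, RNF43 1.35-fold, LGR5 1.24-fold and SP5 1.21-fold higher, and DKK1 was 1.39-fold lower. The calls for LGR5 and SP5 (adjusted p = 0.0178 and 0.0428 by edgeR) did not hold throughout. That for LGR5 was lost without oxozeaenol replicate 2 or 3 or combination replicate 4 (adjusted p up to 0.0795) and without batch 4 (0.0517). That for SP5 was lost without oxozeaenol replicate 2, 3 or 4 or combination replicate 1, 2 or 3 (up to 0.137). It was also lost without batch 4 (0.0981) and without the filter on low counts (0.0732).

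Compared with PI103 alone, the combination with PD0325901 changed 6 genes, beside 38.7% of all tested genes. NKD1 was 3.05-fold lower, ZNRF3 1.98-fold, SP5 1.47-fold and AXIN2 1.35-fold lower, while DKK1 was 2.19-fold and LGR5 1.26-fold higher (adjusted p from 8.74e-10 to 0.00339 by edgeR). CTNNB1 was called lower as well with the batch in the model (adjusted p = 0.0479). Against PD0325901 alone it differed in 4 genes, beside 18.1%. NKD1 was 1.45-fold, RNF43 1.44-fold, LGR5 1.41-fold and AXIN2 1.24-fold higher. The call for AXIN2 (adjusted p = 0.0125 by edgeR) was lost without combination replicate 1 or PD0325901 replicate 3 (adjusted p up to 0.0606), without batch 4 (0.0563) and with the compared groups alone (0.0808). ZNRF3 was 1.23-fold higher and not called (adjusted p = 0.16), but was called without combination replicate 2 (0.00996). DKK1 was 1.22-fold lower and not called (adjusted p = 0.0535), but was called with the batch in the model (adjusted p = 0.0049) and by DESeq2 (0.0274), and without PD0325901 replicate 1 or 2 or combination replicate 4 (down to 0.0102), while CTNNB1 was called lower with the batch in the model (adjusted p = 0.0362).

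The mean of the log2 effects of the single agents was used as a further reference for each combination. No single agent was given at 50% of its dose. The reference therefore assumes that 50% of a dose gives 50% of its log2 effect, which was not tested. No interaction of the agents can be read from a difference from this mean. PI103 with oxozeaenol differed from it in 0 of the 9 genes by edgeR and in 0 by DESeq2, beside 3.98% of all tested genes, and 1 gene, NKD1, had an unadjusted p under 0.05 (log2 -0.34 ± 0.12, adjusted p = 0.111). Without oxozeaenol replicate 4, NKD1 was called (adjusted p = 0.0171). PI103 with PD0325901 differed from the mean in 3 of 9 genes, beside 22.0%. DESeq2 called 4, with ZNRF3 added (adjusted p = 0.0332), and 7 had an unadjusted p under 0.05. LGR5 and DKK1 were above it, each by 0.42 on the log2 scale (adjusted p = 0.000332 and 0.00144 by edgeR), and NKD1 was below it by 0.54 ± 0.12 (adjusted p = 0.00197). With the batch in the model 6 genes were called, the further ones being RNF43 above the mean by 0.19 and CTNNB1 and ZNRF3 below it, at -0.23 and -0.36 (adjusted p = 0.0496, 0.0239 and 0.0161 by edgeR). Without PD0325901 replicate 2 the count was 5 genes, ZNRF3 and SP5 being added (adjusted p = 0.0102 and 0.0442).

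**Figure D4:**
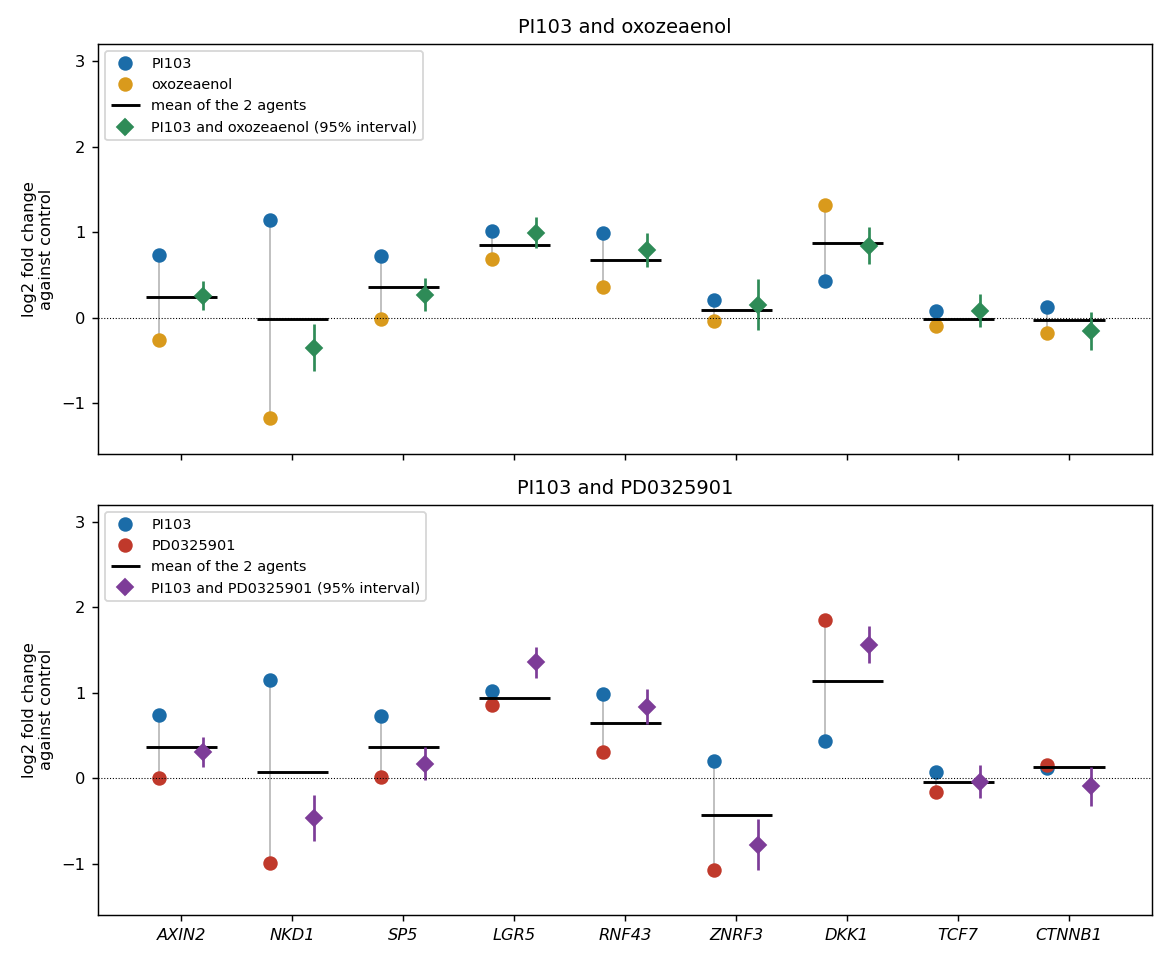
Log2 fold change against control (vertical axis) of each combination (diamonds, 95% intervals) beside its single agents (circles) and the mean of the latter (black bars), for PI103 with oxozeaenol above and PI103 with PD0325901 below. LGR5 and DKK1 lie 0.42 above the bar and NKD1 0.54 below it for PI103 with PD0325901.

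Across the 24 libraries the levels of some members followed each other, which is given as a description only since libraries of a group share their treatment. Pearson's r of log2 CPM was 0.85 between LGR5 and RNF43, 0.82 between AXIN2 and NKD1 and 0.79 between AXIN2 and RNF43. It was also 0.79 between NKD1 and SP5 and between AXIN2 and SP5. DKK1 ran against NKD1 (r = -0.70) and ZNRF3 (r = -0.72). Over the same 24 libraries and 11616 genes compared, the genes most like AXIN2 were HR, SETDB1 and CAMK2N1 (r = 0.96, 0.96 and 0.95). Those most like LGR5 were COL4A5, MARVELD1 and C11orf95 (r = 0.97, 0.96 and 0.96), and those most like DKK1 were GLDC, ACPP and KCNJ13 (r = 0.97, 0.96 and 0.96). HR, for instance, rose from 8.34 CPM in control to 24.3 with PI103 (log2 1.54 ± 0.12) and fell by 0.47 with oxozeaenol. KCNJ13 averaged only 0.0757 CPM in control and 0.101 with PI103, so its r rests partly on values near the floor.

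Other parts of the pathway were read from 7 lists of genes. Their counts of called genes stand beside the shares of all tested genes given above, 51.4% with PI103, 58.6% with PD0325901, 51.9% with oxozeaenol, and 55.6% and 64.8% with oxozeaenol and PD0325901 added to PI103, each split about evenly between rises and falls. Of 12 tested Wnt and R-spondin receptors, 7 rose and 1 fell with PI103, 3 rose and 2 fell with PD0325901, and 5 rose and none fell with oxozeaenol, with medians of 0.67, 0.06 and 0.09 on the log2 scale. The share of all genes that rose was 26.2%, 28.7% and 25.7% in these comparisons, and 25.2%, 29.9% and 26.1% fell. With PI103 and oxozeaenol 7 rose and 1 fell, and with PI103 and PD0325901 4 rose and none fell. Among the receptors that rose with PI103 alone, LGR6 averaged only 0.068 CPM over all libraries. FZD2, a Frizzled receptor, rose from 9.62 ± 1.43 CPM in control to 24.6 ± 2.14 with PI103 and 37.2 ± 5.12 with PD0325901. FZD4, of the same family, rose from 1.87 ± 0.464 CPM to between 4.10 ± 0.171 with PI103 and 7.89 ± 0.254 with PI103 and PD0325901. LRP5, a co-receptor that DKK1 binds, rose from 59.7 ± 4.89 CPM to 125 ± 9.71 with PI103 (log2 1.07 ± 0.10, adjusted p = 1.36e-09 by edgeR) and was not called with PD0325901 (log2 0.06, adjusted p = 0.604).

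A pair of further receptors was picked after their values were seen. LGR4, a relative of LGR5, rose by 0.96 ± 0.11 on the log2 scale with PI103 and was at 0.06 and 0.07 with PD0325901 and oxozeaenol, neither called, although without control replicate 3 both were (adjusted p = 0.019 and 0.0298 by edgeR). FZD7 rose by 0.78 ± 0.15 with PI103 and fell by 0.48 with PD0325901 (adjusted p = 0.00752 by edgeR), and the fall was lost without PD0325901 replicate 2 (adjusted p = 0.051).

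Among 7 tested ligands, 1 rose and 1 fell with PI103, 2 and 2 did with PD0325901, 2 and 1 with oxozeaenol, 3 and 1 with PI103 and oxozeaenol, and 1 and 3 with PI103 and PD0325901. Read against 51.4% and 58.6% of all genes called with PI103 and PD0325901, neither count was above its share. The 4 ligands called with PD0325901 became 2 without control replicate 1 or PD0325901 replicate 1, and the 4 called with PI103 and PD0325901 became 2 without control replicate 1. Those called with PD0325901 also became 2 with a mean of at least 1 CPM required and with only the compared groups fitted. They included WNT8B and WNT10A, which averaged only 0.123 and 0.157 CPM over all libraries. WNT7B, called higher with oxozeaenol, averaged only 0.188 CPM. WNT6 rose in each comparison, from 15.5 ± 3.87 CPM in control to 36.6 ± 6.48 with PI103 and PD0325901, and WNT10B fell from 2.12 ± 0.261 CPM to 0.625 ± 0.172 there. WNT5B fell there from 7.13 ± 0.532 to 5.57 ± 0.568 CPM (adjusted p = 0.0176 by edgeR), a call lost without control replicate 1 or combination replicate 4 (up to 0.0575). Of 6 tested secretion factors and secreted modulators, 2 rose and 1 fell with PI103, 3 and 1 with PD0325901, 2 and 1 with oxozeaenol, 3 and none with PI103 and oxozeaenol, and 3 and 1 with PI103 and PD0325901. With 51.4% of all genes called for PI103 and 58.6% for PD0325901, these are small counts with no difference from the background tested. The rises with PD0325901 included DKK3, which averaged only 0.500 CPM over all libraries. The 4 called with PI103 and PD0325901 became 2 without control replicate 1 or 4, without combination replicate 2 or 3 and without batch 4. PORCN, which attaches the lipid that Wnt proteins need for secretion, rose from 10.1 ± 0.803 CPM to 20.2 ± 3.29 with PD0325901. KREMEN1, a receptor for DKK1, rose from 14.8 ± 2.08 CPM to 26.4 ± 1.41 with PI103. KREMEN2, a further receptor for DKK1 at a low level, fell from 1.05 ± 0.124 CPM to 0.536 ± 0.0703 with PI103 (log2 -0.98 ± 0.22, adjusted p = 0.000511 by edgeR) and rose by 1.55 ± 0.20 with PD0325901 and 1.32 ± 0.20 with oxozeaenol. Its rise of 0.57 with PI103 and oxozeaenol (adjusted p = 0.0187) was lost without control replicate 1, combination replicate 4 or batch 4 (up to 0.0855).

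NOTUM, an enzyme that removes that lipid, is a feedback target like AXIN2 and NKD1 and was picked after its values were seen. It had 6 ± 0.677 CPM in control, 10.8 ± 0.666 with PI103, 4.06 ± 0.914 with PD0325901 and 4.59 ± 0.384 with oxozeaenol. Its log2 changes of 0.85, -0.56 and -0.38 with these single agents (adjusted p = 3.14e-06, 0.000506 and 0.0145 by edgeR) have the signs of those of NKD1. The fall with oxozeaenol alone was lost without control replicate 4 (adjusted p = 0.056) and without batch 4 (0.101). With PI103 and oxozeaenol NOTUM averaged 6.65 ± 0.503 CPM, above the control mean with overlapping ranges, while NKD1 was called lower there. With PI103 and PD0325901 NOTUM averaged 4.88 ± 0.340 CPM. That fall was not called without control replicate 1, 2 or 4 or combination replicate 2, 3 or 4 (adjusted p up to 0.14 by edgeR). It was also not called without the filter on low counts (0.0519) or without batch 4 (0.249). Nor was it called with a mean of at least 1 CPM required (0.0674) or with only the compared groups fitted (0.0570).

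Of 21 tested genes of the destruction complex and its cytoplasmic regulators, 3 rose and 3 fell with PI103, 5 and 6 with PD0325901, 3 and 7 with oxozeaenol, 4 and 6 with PI103 and oxozeaenol, and 6 and 6 with PI103 and PD0325901. The 6 of 21 called with PI103 lie below the 51.4% of all genes, and the 11 of 21 with PD0325901 lie near 58.6%. The rises with PD0325901 included NKD2, which averaged only 0.107 CPM over all libraries. CSNK1A1, the kinase that primes beta-catenin for degradation, fell in all 5 comparisons, from 347 ± 6 CPM in control to between 187 ± 12.9 with PI103 and oxozeaenol and 242 ± 15 with PD0325901. FRAT2, which binds the kinase GSK3, rose in all 5, from 11 ± 1.99 CPM to 24.6 ± 1.25 with PI103. APC2, a relative of APC, rose in all 5 at a low level, from 1.23 ± 0.193 CPM to 3.51 ± 0.397 with PI103.

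Among 14 tested nuclear partners of beta-catenin, 6 rose and 1 fell with PI103, 4 and 5 with PD0325901, 3 and 5 with oxozeaenol, 4 and 3 with PI103 and oxozeaenol, and 5 and 1 with PI103 and PD0325901. The 7 and 9 of 14 called with PI103 and PD0325901 lie near the 51.4% and 58.6% of all genes. TLE1 and TLE2, co-repressors that bind TCF factors, and CTNNBIP1, which blocks the binding of beta-catenin to TCF, rose in all 5 comparisons. In these, TLE2 went from 8.47 ± 0.367 CPM in control to 14.5 ± 1.27 with PI103 and 21.8 ± 2.70 with PD0325901, and CTNNBIP1 from 14.2 ± 1.05 to 23.6 ± 0.424 and 25.8 ± 1.85. Of 5 tested cadherins and catenins, 2 rose with PI103, 4 with PD0325901 and 4 with PI103 and PD0325901, and 1 fell with oxozeaenol. Beside these, 26.2%, 28.7% and 32.2% of all genes rose and 26.1% fell in the same comparisons. The rises with PD0325901 included CDH2, which averaged only 0.394 CPM over all libraries. The 4 with PD0325901 became 2 without control replicate 2, without PD0325901 replicate 2 and without the filter on low counts. The oxozeaenol call, for CTNNA1, did not pass once control replicate 1 or oxozeaenol replicate 4 was removed, and with PI103 and oxozeaenol 1 gene was called in place of none with the batch in the model or without control replicate 3. JUP, or plakoglobin, had 319.8 ± 25.3 CPM in control and 449 ± 23.9 with PI103. CTNND1, or p120 catenin, had 21.8 ± 3.29 and 30.1 ± 2.86 CPM in these groups (log2 0.46 ± 0.12, adjusted p = 0.00273 by edgeR). With PD0325901 the rises of JUP (log2 0.22, adjusted p = 0.0324) and CTNND1 (log2 0.28, adjusted p = 0.0495) were both lost without replicate 2 of either group (up to 0.0832 and 0.249). The call of JUP was also lost without PD0325901 replicate 1 or control replicate 3, and that of CTNND1 without control replicate 4, without batch 4 or with the compared groups alone. CDH1, or E-cadherin, had 13.3 ± 1.29 CPM in control and rose to 18.7 ± 3.22 with PD0325901 (log2 0.48 ± 0.14, adjusted p = 0.00364 by edgeR).

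Other reported Wnt targets moved in both directions. Of 21 tested, 9 rose and 5 fell with PI103, 6 rose and 10 fell with PD0325901, 3 rose and 10 fell with oxozeaenol, 4 rose and 6 fell with PI103 and oxozeaenol, and 8 rose and 8 fell with PI103 and PD0325901. Of all genes, 26.2%, 28.7% and 25.7% rose and 25.2%, 29.9% and 26.1% fell with PI103, PD0325901 and oxozeaenol. PROX1, called higher with PI103 and lower with PD0325901, averaged only 0.786 CPM over all libraries. MYC, which codes for a growth-promoting transcription factor, fell in all 5 comparisons, from 293 ± 34.3 CPM in control to 144 ± 10.7 with PI103, 89.5 ± 15.6 with PD0325901 and 119 ± 14.2 with oxozeaenol. EPHB2, a receptor that positions cells in the intestinal crypt, rose in all 5, from 9.03 ± 0.660 CPM to 12 ± 1.06, 18.6 ± 1.79 and 24.6 ± 2.23. GAS6, a ligand of the TAM receptor kinases, rose from 39.0 ± 1.85 CPM to 105 ± 6.66, 119 ± 13.3 and 115 ± 2.54. MYC thus fell with PI103 (log2 -1.03 ± 0.12) while AXIN2, NKD1, LGR5 and SP5 rose.

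**Figure D5:**
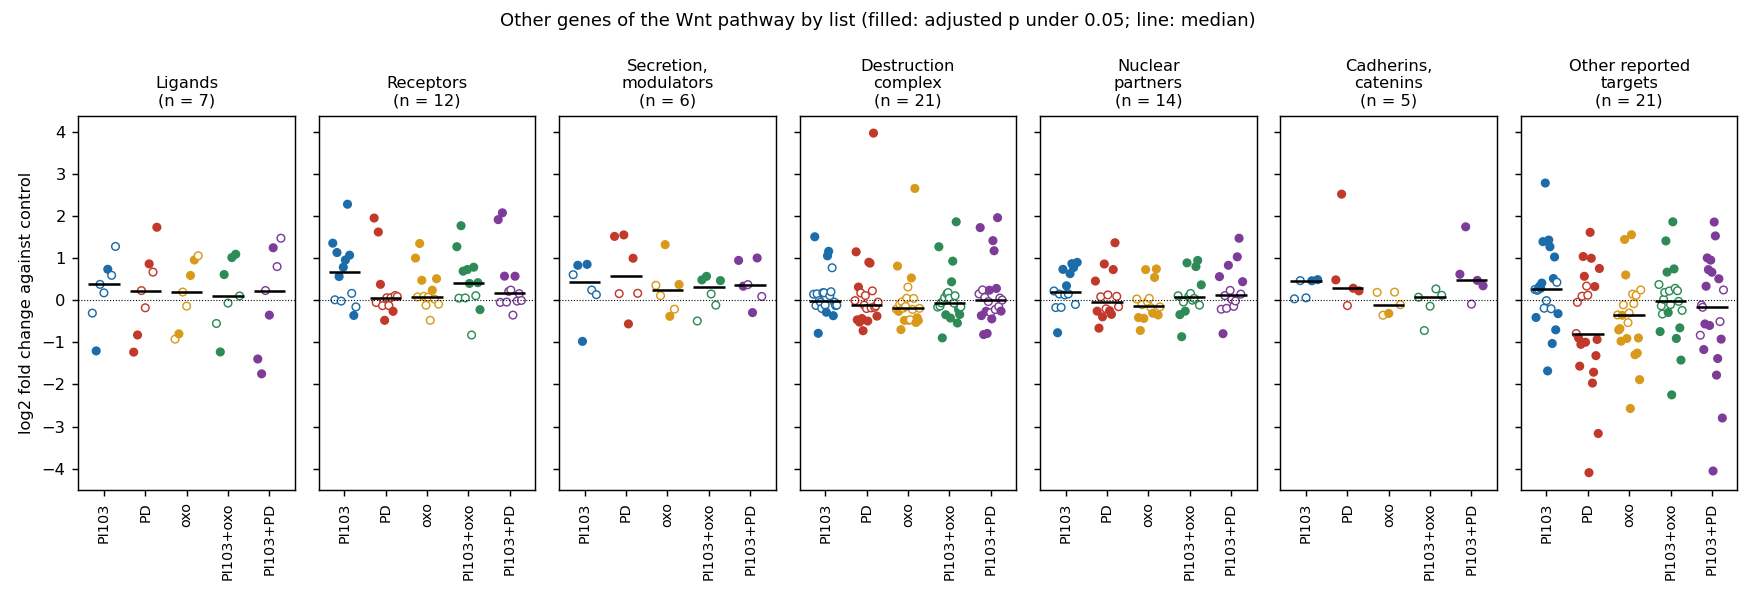
Log2 fold change against control (vertical axis) of each tested gene in 7 lists of the Wnt pathway, by treatment, where filled points passed an adjusted p under 0.05 and the line is the list's median. The receptors have a median of 0.67 with PI103, and the other reported targets have a median of -0.79 with PD0325901.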

How the data were processed

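Per the labels' protocols, mRNA libraries were made with a stranded ligation kit from 0.8 µg of total RNA. The authors deposited a table of read counts, whole numbers for each gene symbol. The build is GRCh38 per the submitters' processing notes. The aligner, the counter and the annotation are not given in the sources used here. The closing tallies of unassigned reads were left out of library sizes: per library, 4.24% to 8.57% had no feature, 1.57% to 2.01% were ambiguous and 4.64% to 6.06% had no unique alignment. Columns that map to no sample numbered 0.

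Groups came from the titles. Counts were filtered with edgeR's filterByExpr, scaled by TMM and fitted by quasi-likelihood (edgeR 4.0.16, R 4.3.3) with 1 coefficient per group over 24 libraries. This left 13947 genes, 9 members among them; 3199 genes had no count. The common biological coefficient of variation was 0.131. SE was derived from the fold change and its F statistic, and log2 CPM used a prior count of 2. The procedure was tested on simulated data in which a small share of genes changed, in a single group and with no batch effect. A share of changed genes as large as that called here was not simulated. The p-values measure the spread between libraries labelled biological replicates.

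In the labels, batch and replicate number are the same, so numbers were taken to pair samples. Over 60 same-numbered pairs of libraries, deviations from group means had a mean correlation of 0.12 (28 pairs over 0.1). Over 180 other pairs the mean was -0.04. Taking deviations from group means ties the second value to the first, so it is not an independent comparison. No test was run on these values.

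The members, lists and tests were chosen with earlier results of these data known. All members are described. Of each list, up to 3 genes with the smallest adjusted p against control and a mean of at least 1 CPM are named. Others are marked as picked later, or are named only for a low level or a lost call. Alternatives were RLE size factors, no filter, a mean of at least 1 CPM, the batch as a block, only the compared groups, each library left out, DESeq2 1.42.0 and, added after seeing the data, all of batch 4 left out. Gene positions and overlaps are from GENCODE release 29.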

Additional observations from a re-analysis of the deposited data

Results flagged for a closer look

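Of 54 sets of 4 libraries (9 genes in 6 groups), 2 held a library far from the other 3, both for CTNNB1. In PI103 replicate 4 it measured 559 CPM beside 681 to 699 in the others, and in PI103 with oxozeaenol replicate 4 it measured 446 CPM beside 565 to 585. The gap to the nearest library was 0.872 and 0.857 of the whole range, above the 95% critical value of Dixon's test for 4 values. Chance flags about 1 in 20 such sets. Both libraries belong to batch 4, in which CTNNB1 with oxozeaenol alone was also lowest, at 410.5 CPM.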

How the results depend on the processing

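No called fold change of a member changed sign under any alternative run. With the batch as a replicate block, 8 of 126 fold changes of members gained a call, no call was lost and the other 118 stayed on their side of the threshold; PI103 with PD0325901 against the mean of its agents then had 6 members called (3 without), and PI103 with oxozeaenol against the mean had 997 genes called (555 without). With only the compared groups fitted, genes called numbered 2348 for oxozeaenol against PD0325901 (3976 in the full fit; 2 members, 4 in the full fit), 4088 for PI103 with oxozeaenol against PI103 (2553), 1222 for PI103 with PD0325901 against PD0325901 (2521) and 887 for PI103 with oxozeaenol against the mean (555). Without batch 4 the last was 272.

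Leaving out 1 library gave 1050 to 2571 genes for PI103 with oxozeaenol against oxozeaenol, 232 to 781 against the mean, 1385 to 3113 for PI103 with PD0325901 against PD0325901, 1466 to 3977 against the mean and 2385 to 4282 for oxozeaenol against PD0325901. Members called then numbered 2 to 5 for oxozeaenol against PD0325901, 3 to 5 for PI103 with PD0325901 against the mean and 0 to 1 for PI103 with oxozeaenol against the mean. Counts of calls in the pathway lists moved by more than 1.5 times, or to or from none, 12 times over all fits without 1 library. They did so 9 times over the other alternatives, where a single fit could move several counts. All of these were for the ligands, the secretion factors and the cadherins and catenins. The cause of these differences was not tested. Depth limits what can be said of LEF1 and of genes under 1 CPM.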
